A study of Homo sapiens with 10 samples.

Results

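A set of 45 genes of mitosis and the G2/M phase was followed in a pair of human myeloid leukaemia lines, each with JOA or a control treatment. The genes were listed by function and looked up by symbol. All 45 were found among the 21944 genes of the NB4 table, and 36 among the 28946 genes and unmatched rows of the Kasumi-1 table. BUB3, CCNB2, CDC20, CDCA3, ESPL1, KIF18A, PLK1, TTK and UBE2C were matched to no Kasumi-1 row and were not analysed there.

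RNA was sequenced from Kasumi-1, an acute myeloid leukaemia line with the RUNX1-RUNX1T1 fusion, and from NB4, an acute promyelocytic leukaemia line with the PML-RARA fusion. There were 3 libraries per treatment from Kasumi-1 and 2 per treatment from NB4. JOA was given at 1 µM, and all libraries were taken after 48 h. The labels give no vehicle for the control. For NB4 treated with JOA, 1 of the labels, the source, names I13 instead, while title and agent name JOA. Each group is 1 established line, and no label ties its libraries to separate cultures, so the p-values measure the spread between these samples only, which may be technical.

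Cells enter mitosis when CDK1 bound to cyclin B is switched on by CDC25 phosphatases, with PLK1 and Aurora A driving the switch. Chromosomes then condense, attach to the spindle through kinetochores and are held back by the checkpoint until the anaphase-promoting complex (APC/C) with CDC20 releases separase. Most of these genes are transcribed late in the cycle, so their summed RNA is widely read as a sign of proliferation. The late transcription runs through the DREAM and B-MYB-FOXM1 complexes, which act at CHR elements beside CCAAT boxes bound by NF-Y.

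Promoters of the members hold these elements often. RefSeq promoter windows on GRCh38.p14, from 250 bases before a start site to 50 after it, were found for 39 members in 49 windows, and none was matched for AURKA, BUB3, TTK, BIRC5, UBE2C and TPX2. The CHR letters TTTGAA stood on either strand in 31 of the 49 windows (63.3%), against 15.2% of all 35116 windows. CCAAT stood on either strand in 37 (75.5%), against 34.6% of all, and at least 2 copies in 21 (42.9%), against 10.8%. Both motifs stood in 26 (53.1%), against 5.90%. A match describes letters and is no measured binding site. The 4 stretches shown are the 130 bases before the start site, chosen among 11 windows that carry no annotated exon there. They come from MKI67, the proliferation antigen, KIF11, a spindle motor, ESPL1, which encodes separase, and CKS2, the member with the smallest difference in NB4. Capitals mark CHR (TTTGAA, or TTCAAA on the other strand) and CCAAT (or ATTGG on the other strand), and in MKI67 the second CHR copy and an ATTGG share 1 base.
MKI67: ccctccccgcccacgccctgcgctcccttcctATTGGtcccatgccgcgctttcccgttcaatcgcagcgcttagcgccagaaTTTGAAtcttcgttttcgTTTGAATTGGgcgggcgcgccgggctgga
KIF11: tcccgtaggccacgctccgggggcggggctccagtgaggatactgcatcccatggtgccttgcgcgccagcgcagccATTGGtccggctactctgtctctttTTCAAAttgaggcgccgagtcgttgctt
ESPL1: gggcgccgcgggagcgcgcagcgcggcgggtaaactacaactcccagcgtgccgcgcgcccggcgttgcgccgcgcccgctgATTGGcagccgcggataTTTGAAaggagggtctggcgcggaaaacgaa
CKS2: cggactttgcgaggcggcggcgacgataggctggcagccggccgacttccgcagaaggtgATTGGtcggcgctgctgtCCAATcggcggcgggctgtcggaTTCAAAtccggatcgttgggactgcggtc
The MKI67 stretch is chr10:128126424-128126553 on the minus strand. The KIF11 stretch is chr10:92593000-92593129, the ESPL1 stretch chr12:53268169-53268298 and the CKS2 stretch chr9:89311065-89311194, all on the plus strand. CDC25C, an activating phosphatase of CDK1, has 4 windows, and 2 of them hold both motifs.

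In NB4 every one of the 45 members had a higher mean with JOA in the values as deposited and 41 with median-ratio scaling, but the differences were small and none passed the test over all genes. The change, given as log2(TPM + 1) in JOA minus control, had a median of 0.30 over the members against 0.08 over all 12932 genes tested, and 66.2% of all genes were positive. With median-ratio scaling the median was 0.21, with quantile scaling 44 were positive with a median of 0.26, and without the mitochondrially encoded transcripts 42 with 0.25. By limma on all genes, 0 members passed an adjusted p under 0.05 (lowest adjusted p = 0.244, for HMMR), where 0.00773% of all genes passed. At an unadjusted p under 0.05 limma placed 24 of the 45 higher with JOA, against 8.20% of all genes, and none lower. That count of 24 was 7 without JOA 2, 18 to 21 without any other library, and 11 with median-ratio scaling. In bulk RNA, more cells of a kind and more RNA per cell cannot be told apart.

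Both JOA libraries lay above both controls for 35 members, where 32.5% of all genes did so, and for the other 10 the groups overlapped. Those 10 were CCNA2, CKS2, CDCA3, BUB3, CENPA, AURKB, BIRC5, CDC20, KIF20A and TACC3. Differences over 0.4 were seen in 13 members, against 9.26% of all genes, and 20 more lay between 0.2 and 0.4. JOA 1 was above control 1 in 45 members and above control 2 in 38. JOA 2 was above control 1 in 45 and above control 2 in 37. JOA 2 was the higher JOA library in 33 of the 45.

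**Figure D1:**
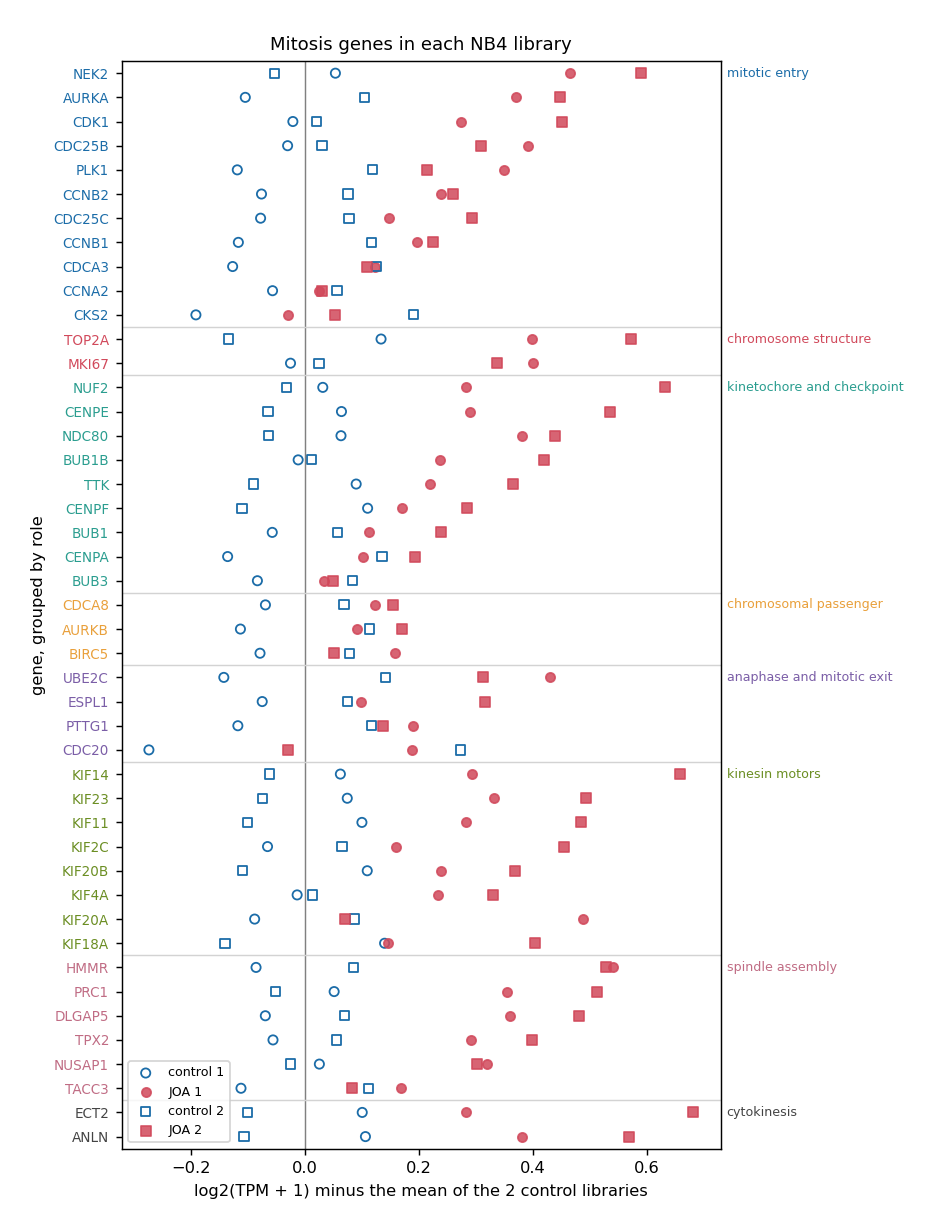
Values of the 45 members in each NB4 library, as log2(TPM + 1) minus the mean of the 2 control libraries (horizontal axis), 1 row per gene grouped by role, open symbols for controls and filled symbols for JOA. Both JOA symbols stand to the right of both controls in 35 rows, in the values as deposited; with median-ratio scaling 41 of the 45 changes stay positive.

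The genes that start mitosis spread from no difference to the second largest of the set. CDK1, the mitotic kinase, read 109 and 112 TPM in the controls and 134 and 152 TPM with JOA. AURKA, the kinase of the spindle poles, read 70.3 and 81.4 TPM against 98.1 and 104 TPM. NEK2, which splits the centrosomes, read 18.1 and 16.7 TPM against 24.4 and 26.6 TPM. Both JOA libraries were above both controls for these 3 genes, by 0.36 (SE 0.11), 0.41 (SE 0.11) and 0.53 (SE 0.14) on the log2 scale, with limma adjusted p of 0.318, 0.305 and 0.290.

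CCNB1, the cyclin B1 partner of CDK1, read 147 and 173 TPM in the controls and 183 and 186 TPM with JOA. PLK1, the kinase that drives entry and exit, read 135 and 159 TPM against 187 and 170 TPM. The control libraries of CCNB1 differed by more than the group means and those of PLK1 by nearly as much, and limma gave changes of 0.21 (SE 0.11, adjusted p = 0.539) and 0.28 (SE 0.12, adjusted p = 0.457). CCNA2, the S and G2 cyclin, read 81.3 and 88.0 TPM against 86.1 and 86.4 TPM, and CKS2, a CDK-binding subunit, 287 and 374 TPM against 321 and 340 TPM. For both genes the JOA libraries lay between the controls. Of the 11 entry genes, 8 had groups that did not overlap, and their median change was 0.25.

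TOP2A, the topoisomerase that untangles sister chromatids, read 98.1 and 81.3 TPM in the controls and 118 and 133 TPM with JOA. MKI67, the coat protein of mitotic chromosomes, read 61.2 and 63.4 TPM against 82.4 and 78.9 TPM. The groups did not overlap for either gene, with changes of 0.48 (SE 0.13) and 0.37 (SE 0.10) and limma adjusted p of 0.294 and 0.305. MKI67 lies at chr10:128096659-128126385 on the minus strand.

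The 9 kinetochore and checkpoint members had a median change of 0.29, from 0.04 for BUB3 to 0.46 for NUF2. NUF2, an arm of the NDC80 complex that grips microtubules, read 52.6 and 50.3 TPM in the controls and 62.8 and 80.3 TPM with JOA. CENPE, the kinetochore motor, read 11.99 and 10.9 TPM against 14.2 and 17.0 TPM. JOA 2 was the highest library for both, well above JOA 1, and the changes of 0.46 (SE 0.14) and 0.41 (SE 0.16) had limma adjusted p of 0.334 and 0.436. The checkpoint kinases BUB1 and TTK differed by 0.18 and 0.29, and limma's 95% intervals included 0. CENPA, the histone H3 variant of centromeres, and BUB3, the BUB1 partner, had overlapping groups.

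The 3 chromosomal passenger members differed least as a role, with a median of 0.13. INCENP, the passenger scaffold, is not among the members and had a larger change of 0.41 (limma adjusted p = 0.268). CDCA8, which encodes borealin, read 50.7 and 55.9 TPM in the controls and 58.1 and 59.4 TPM with JOA. AURKB, the passenger kinase, read 100.4 and 118 TPM against 116 and 122 TPM. CDCA8 had groups that did not overlap, by 0.14 (SE 0.11, limma adjusted p = 0.673), while 1 AURKB control exceeded JOA 1. BIRC5, which encodes survivin, went the same way by 0.11 with overlapping groups.

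Among the anaphase genes, UBE2C, the ubiquitin-conjugating enzyme of the APC/C, read 27.9 and 34.1 TPM in the controls and 41.9 and 38.5 TPM with JOA. ESPL1 read 41.4 and 46.0 TPM against 46.8 and 54.6 TPM. Both JOA libraries lay above both controls, with changes of 0.37 (SE 0.14) and 0.21 (SE 0.13) and limma adjusted p of 0.423 and 0.596. CDC20, the APC/C activator, had the widest controls of the set on the log2 scale, at 101 and 148 TPM, and its JOA libraries of 139 and 120 TPM fell between them.

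The 8 mitotic kinesins, motors that move chromosomes and spindle fibres, had a median of 0.31 and lay close together, between 0.27 and 0.48. KIF14, a motor of the midbody, read 9.63 and 8.75 TPM in the controls and 11.5 and 15.1 TPM with JOA. KIF23, which bundles the central spindle, read 28.1 and 25.2 TPM against 33.7 and 37.8 TPM. The groups did not overlap, with changes of 0.48 (SE 0.18) and 0.41 (SE 0.13) and limma adjusted p of 0.432 and 0.354. KIF20A, a cytokinesis motor, was the 1 kinesin with overlapping groups.

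Spindle assembly and cytokinesis genes had medians of 0.38 and 0.48, and HMMR had the largest difference of the set. HMMR, a microtubule-binding spindle pole protein at chr5:163460203-163491945 on the plus strand, read 26.8 and 30.3 TPM in the controls and 41.9 and 41.6 TPM with JOA. PRC1, which crosslinks the midzone, read 115 and 107 TPM against 142 and 159 TPM. The JOA libraries of HMMR were nearly equal and its controls stood well below, a change of 0.53 (SE 0.12, 95% interval 0.25 to 0.82, limma adjusted p = 0.244), and PRC1 differed by 0.43 (SE 0.11, limma adjusted p = 0.273). ANLN, the anillin scaffold of the cleavage furrow, read 59.3 and 51.0 TPM against 71.9 and 82.0 TPM. ECT2, which activates RhoA there, read 23.5 and 20.3 TPM against 26.8 and 35.7 TPM. Neither cytokinesis gene had overlapping groups, with changes of 0.47 (SE 0.13) and 0.48 (SE 0.17) and limma adjusted p of 0.294 and 0.390.

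The most abundant transcript of most members also had a higher mean with JOA in NB4. The members have 323 listed transcripts in NB4, and the most abundant was the same in all 4 libraries for 43 members, with CDC25B and CDC25C as the exceptions. It was protein-coding for 44 members and a retained-intron form for CDCA3. As deposited, the mean of this transcript was higher with JOA for 42 members, and for 31 both JOA libraries lay above both controls. No share over all transcripts was computed, so these counts have no background beside them. Protein-coding transcripts held 83.0% and 84.2% of the members' summed TPM in the controls and 83.2% and 84.8% with JOA. The summed TPM of coding forms in JOA was 1.18 times that of the controls and that of retained-intron forms 1.14 times. Nonsense-mediated decay forms stood at 0.968 times, but their JOA libraries lay on both sides of the controls. They read 28.9 and 26.1 TPM in the controls and 32.2 and 21.0 TPM with JOA. Summing coding transcripts only left the 45 changes positive as deposited, with a median of 0.32 and 0 past limma's adjusted p (25 at an unadjusted p under 0.05). In that fit 68.0% of all 11056 genes were positive, with a median of 0.09. Their share at an unadjusted p under 0.05 is not given here.

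Transcript length moved with these differences and also with the difference between the control libraries. Over the 45 members, the change with JOA correlated with log2 length of the main coding transcript at Pearson 0.44, against 0.11 over 11697 genes, a description across genes that share the same 4 libraries. The 8 members up to 1500 bases had a median change of 0.14, the 11 between 1500 and 2500 bases 0.31, the 15 between 2500 and 4000 bases 0.31, and the 11 longer ones 0.38. The medians of all genes in these bins were 0.04, 0.07, 0.09 and 0.13. Control 1 minus control 2 correlated with length at Pearson 0.65 over the members, against 0.15 over the 11697 genes. For JOA 2 minus JOA 1 the values were 0.33 and 0.14. Control 1 was the higher control in 16 members, of median length 3828 bases, and control 2 in 29, of median length 2469 bases. The part of length in the change with JOA was not tested.

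**Figure D2:**
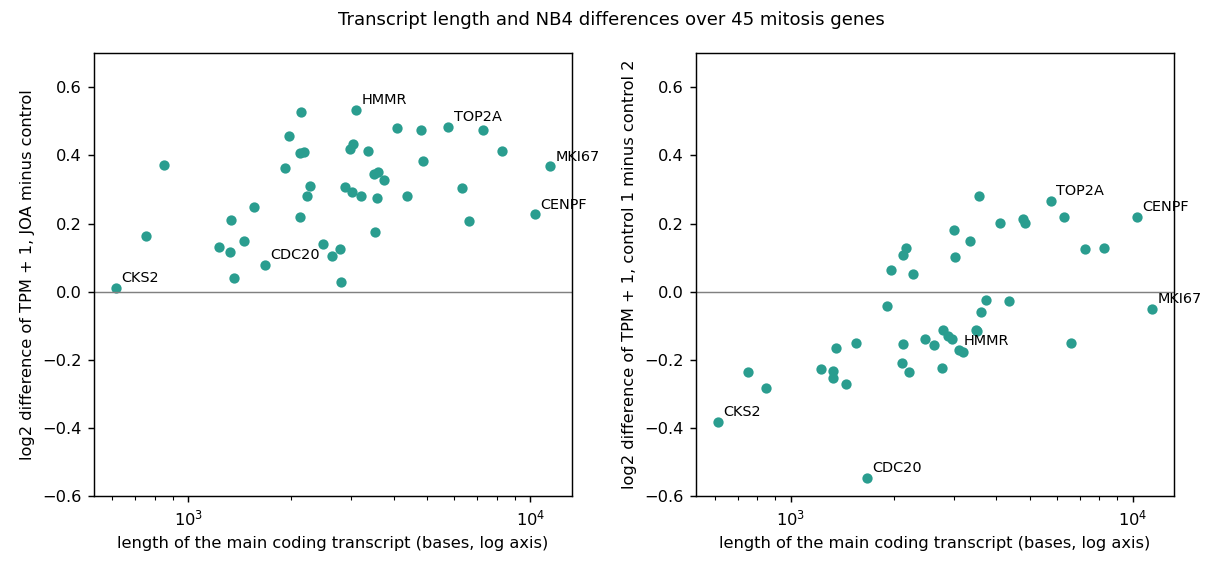
Length of each member's main coding transcript in bases (horizontal log axis) against the NB4 log2(TPM + 1) difference between JOA and control (left) and between control 1 and control 2 (right), 1 point per gene. Points rise with length in both panels, at Pearson 0.44 on the left and 0.65 on the right; the left values are as deposited, and 41 of the 45 stay positive with median-ratio scaling.

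Other features of the NB4 libraries moved with treatment as well. Mitochondrially encoded transcripts held 14.6% and 16.4% of TPM in the controls and 11.2% and 13.1% with JOA. The 6 promyelocytic markers (MPO, PRTN3, ELANE, CTSG, AZU1, CD33) were all at 1 TPM or more, and their sum was 8568 to 8707 TPM in the controls and 5008 to 6373 TPM with JOA. MPO made up most of that sum, at a mean of 7838 TPM in the controls and 5282 TPM with JOA, and CD33 went the other way from the rest, from 54.1 to 73.8 TPM. Of the 6 monocyte markers 4 reached 1 TPM, with sums of 40.1 to 44.7 and 43.9 to 48.9 TPM. T cell markers (2 of 6) summed to 29.4 to 30.9 and 33.7 to 49.5 TPM, B cell markers (3 of 4 listed) to 19.6 to 19.7 and 24.2 to 25.0 TPM, and epithelial and fibroblast markers (3 of 7, KRT19 at 0) to 38.6 to 39.8 and 53.5 to 55.3 TPM. Within the T cell list CD3D went from 26.7 to 39.5 TPM and CD8A from 2.94 to 1.60 TPM. Erythroid markers stayed under 1 TPM, with AHSP at 0. The part of these shifts in the members' values was not tested.

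In Kasumi-1 the same genes showed no shared direction as deposited, while with median-ratio scaling 28 of the 36 were lower with JOA. Of the 36 members matched, 19 had a higher and 17 a lower mean with JOA as deposited, with a median log2(FPKM + 1) change of 0.01. Over all 12101 genes and unmatched rows tested, called all genes for Kasumi-1 below, the median was 0.05 and 61.9% were positive. With median-ratio scaling 8 of the 36 were positive (47.5% of all genes), with a median of -0.06, and with quantile scaling 14 (47.5% of all genes). Without control 1 or without JOA 3 the 19 became 11, and without JOA 1 26. The changes ran from -0.23 for KIF20B to 0.31 for CDC25C. By limma without pairing 0 of the 36 passed an adjusted p under 0.05 (lowest adjusted p = 0.295), as did 0% of all genes. At an unadjusted p under 0.05 only CDC25B passed, higher with JOA, where 11.7% of all genes were. For 25 members the upper end of limma's 95% interval lay under 0.3, the median change of the members in NB4 being 0.30 as deposited. With median-ratio scaling that NB4 median was 0.21. The cut was taken from NB4, and the changes are on different scales (FPKM + 1 and TPM + 1), so no NB4-sized change is excluded by this count.

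The 3 JOA libraries lay above the 3 controls for 1 member, CDC25C, where 16.0% of all genes did, and below them for 0 members, where 7.10% of all genes did. The other 35 had overlapping groups. Among the controls, control 2 was the highest in 29 members and control 1 the lowest in 27. Among the JOA libraries, JOA 1 was the lowest in 32 and JOA 3 the highest in 23. The median of the members against the control mean was -0.11, 0.13 and -0.003 in controls 1 to 3, and -0.15, 0.01 and 0.12 in JOA 1 to 3. The spread within each group was thus wider than the difference between the groups.

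**Figure D3:**
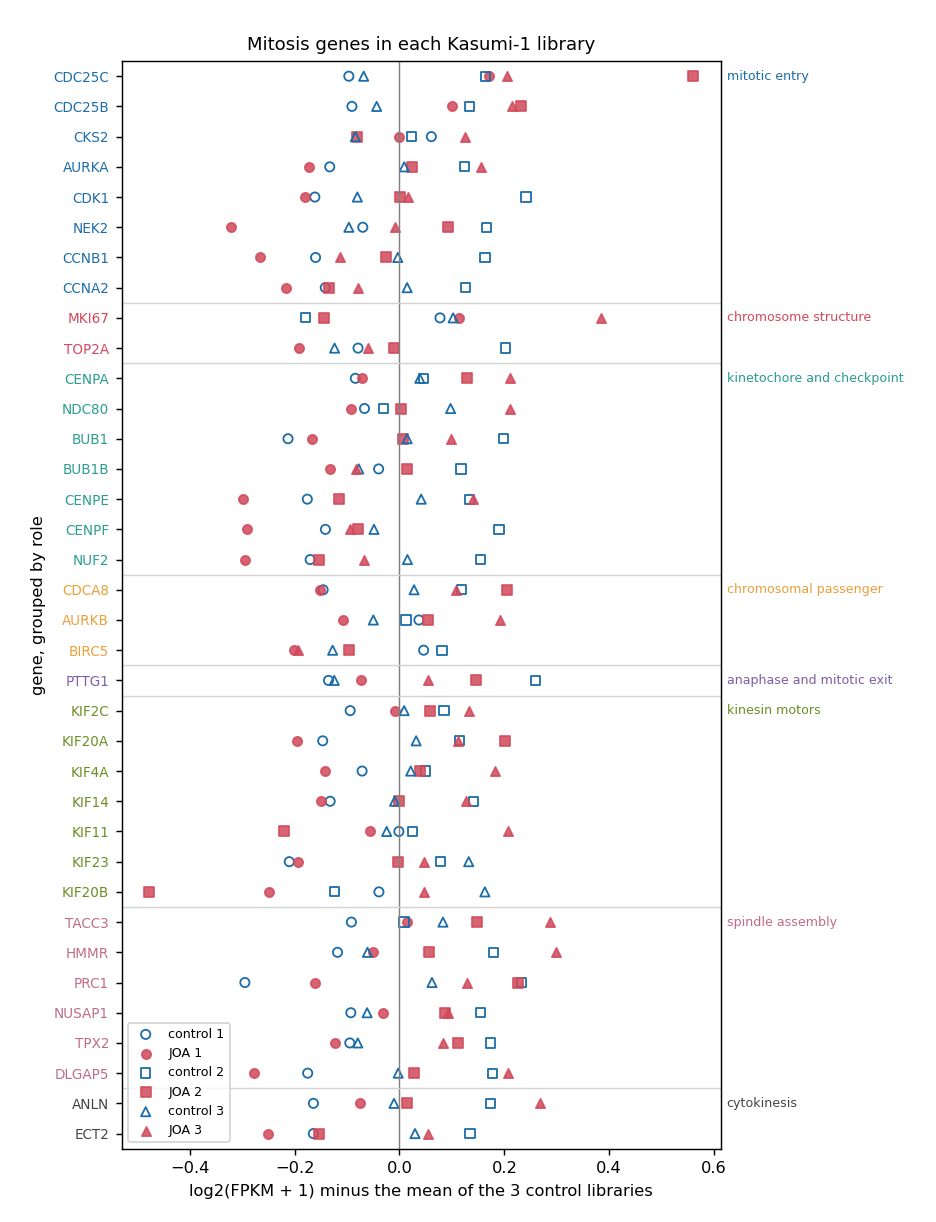
Values of the 36 matched members in each Kasumi-1 library, as log2(FPKM + 1) minus the mean of the 3 control libraries (horizontal axis), 1 row per gene grouped by role, open symbols for controls and filled symbols for JOA. Open and filled symbols interleave in 35 rows, and in the CDC25C row every JOA symbol stands to the right of the controls; 19 of the 36 changes are positive as deposited and 8 with median-ratio scaling.

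Same-numbered libraries deviated together in Kasumi-1, so control and JOA were also compared in pairs. CDC25C read 2.67, 3.39 and 2.74 FPKM in the controls and 3.42, 4.78 and 3.52 FPKM with JOA. It lies at chr5:138285265-138338355 on the minus strand. The change of 0.31 (SE 0.13) had a limma adjusted p of 0.307 without pairing and 0.0494 with it, where 8.14% of all genes passed with pairing. With any pair left out the paired adjusted p of CDC25C was 0.131 to 0.147. With pairing and median-ratio scaling together, chosen after the data were seen, its adjusted p was 0.0663, and 3 other members passed, all lower with JOA: CCNB1 (adjusted p = 0.0365), BIRC5 (0.0443) and KIF20B (0.0381). The paired calls thus named different members under the scalings.

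The pairs disagreed on the set as a whole. The median change of the members was -0.03 in pair 1, -0.10 in pair 2 and 0.12 in pair 3, with 13, 9 and 28 of the 36 positive. In all 3 pairs 5 members were higher with JOA, where 36.0% of all genes were, namely CDC25B, CDC25C, MKI67, CENPA and TACC3. In all 3 pairs 7 were lower, where 17.8% of all genes were, namely CCNA2, CCNB1, BUB1B, NUF2, CENPF, BIRC5 and KIF20B. Medians by role lay between -0.07 for kinetochore genes and 0.06 for spindle assembly genes.

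Mitotic kinases and cyclins in Kasumi-1 had groups that overlapped when libraries were not paired. CDK1 read 39.6, 52.6 and 41.9 FPKM in the controls and 39.0, 44.4 and 44.9 FPKM with JOA. CCNB1 read 45.04, 56.6 and 50.3 FPKM against 41.8, 49.5 and 46.5 FPKM. AURKA read 20.0, 24.1 and 22.2 FPKM against 19.4, 22.4 and 24.7 FPKM. Groups overlapped for the 3 genes, with control 2 the highest control of each and changes of -0.05 (SE 0.11), -0.13 (SE 0.10) and 0.00 (SE 0.10). CCNB1 and CCNA2 were lower in all 3 pairs, with paired limma adjusted p of 0.0820 and 0.126, and CCNB1 passed at 0.0365 with pairing and median-ratio scaling. CDC25B, another CDK1-activating phosphatase, read 18.0, 21.2 and 18.6 FPKM against 20.7, 22.8 and 22.5 FPKM, a change of 0.18 (SE 0.08, limma adjusted p = 0.295).

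TOP2A in Kasumi-1 read 95.6, 116 and 92.7 FPKM in the controls and 88.4, 100.3 and 96.9 FPKM with JOA. MKI67 read 76.5, 63.9 and 77.9 FPKM against 78.5, 65.5 and 94.96 FPKM. The MKI67 libraries followed their replicate numbers, with replicate 2 the lowest in both groups, and the changes of the pair were -0.09 (SE 0.10) and 0.12 (SE 0.14). Of the kinetochore genes, NUF2 read 9.78, 12.5 and 11.3 FPKM against 8.89, 9.92 and 10.6 FPKM. CENPF, a kinetochore corona protein, read 28.1, 35.6 and 30.1 FPKM against 25.3, 29.4 and 29.1 FPKM. Both had overlapping groups, at -0.17 (SE 0.10) and -0.15 (SE 0.10).

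The passenger genes went in both directions. BIRC5 read 37.3, 38.2 and 32.9 FPKM in the controls and 31.3, 33.7 and 31.4 FPKM with JOA, and CDCA8 read 18.1, 21.96 and 20.6 FPKM against 18.1, 23.4 and 21.8 FPKM. Their changes were -0.16 (SE 0.07, limma adjusted p = 0.309) and 0.05 (SE 0.11). PTTG1, which encodes securin and was the 1 matched anaphase gene, read 18.5, 24.6 and 18.6 FPKM against 19.3, 22.7 and 21.2 FPKM, with overlapping groups.

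KIF20B, a motor that acts in the completion of cytokinesis, read 16.4, 15.4 and 19.0 FPKM in the controls and 14.0, 11.8 and 17.4 FPKM with JOA. KIF2C, a microtubule depolymerase, read 22.4, 25.5 and 24.2 FPKM against 23.9, 25.0 and 26.4 FPKM. Replicate 2 of KIF20B was the lowest of each group, and the changes were -0.23 (SE 0.14) and 0.06 (SE 0.07). TACC3, which stabilises spindle fibres, read 25.9, 27.8 and 29.3 FPKM against 27.9, 30.7 and 33.9 FPKM. HMMR read 12.5, 15.5 and 13 FPKM against 13.1, 14.2 and 17.0 FPKM. Both overlapped their controls, at 0.15 (SE 0.08) and 0.10 (SE 0.11).

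The cytokinesis genes of Kasumi-1 also overlapped. ECT2 read 7.40, 9.34 and 8.61 FPKM in the controls and 6.92, 7.47 and 8.78 FPKM with JOA, and ANLN read 11.0, 14.1 and 12.3 FPKM against 11.7, 12.6 and 15.2 FPKM. The changes were -0.12 (SE 0.11) and 0.07 (SE 0.12). Library sums in Kasumi-1 ranged from 265824 to 277629 FPKM. RUNX1T1, KIT and MPO, 3 of 5 markers of the line, were matched and present, while CD33 and CD34 were not matched. Erythroid markers stayed under 1 FPKM, and the other lists had 1 to 3 matched markers each.

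The members' response was lower in Kasumi-1 than in NB4 for most genes, but no single difference passed over all genes. The difference of the changes (Kasumi-1 minus NB4) was negative for 33 of the 36 members, where it was for 4306 of all 7261 genes. The median was -0.36 over the members against -0.05 over all genes. By limma 0 members passed an adjusted p under 0.05 (lowest adjusted p = 0.217, for NUF2), where 0.193% of all genes did. At an unadjusted p under 0.05 limma placed 21 members lower in Kasumi-1, where 7.73% of all genes were, and none higher. The count of 21 was 5 without NB4 JOA 2, 7 without Kasumi-1 JOA 1, 9 without control 2 of either line and 13 without NB4 control 1. CDC25C, CKS2 and TACC3 were the 3 with a positive difference. Kasumi-1 values come from 1 sequence record per member (2 for ECT2), while NB4 values sum the transcripts of a gene, up to 17 for PRC1. The part of this in the difference was not tested. The count of 33 was the same under median-ratio and quantile scaling, with medians of -0.32 and -0.30.

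NUF2 differed most, at -0.63 (95% interval -1.01 to -0.25). NEK2 followed at -0.61 (-1.01 to -0.20, limma adjusted p = 0.247) and ECT2 at -0.60 (-1.04 to -0.16, limma adjusted p = 0.285). CDC25C stood at the other end at 0.09 (-0.34 to 0.53, limma adjusted p = 0.894). The changes in the lines were unrelated in size across the 36 members (Pearson -0.06, Spearman -0.08), although the order of control levels, each ranked within its own table, was similar (Spearman 0.69). CKS2 led both orders, while KIF14 and CDC25C were among the lowest. These correlations run across genes, not samples, and the lines share no control libraries.

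**Figure D4:**
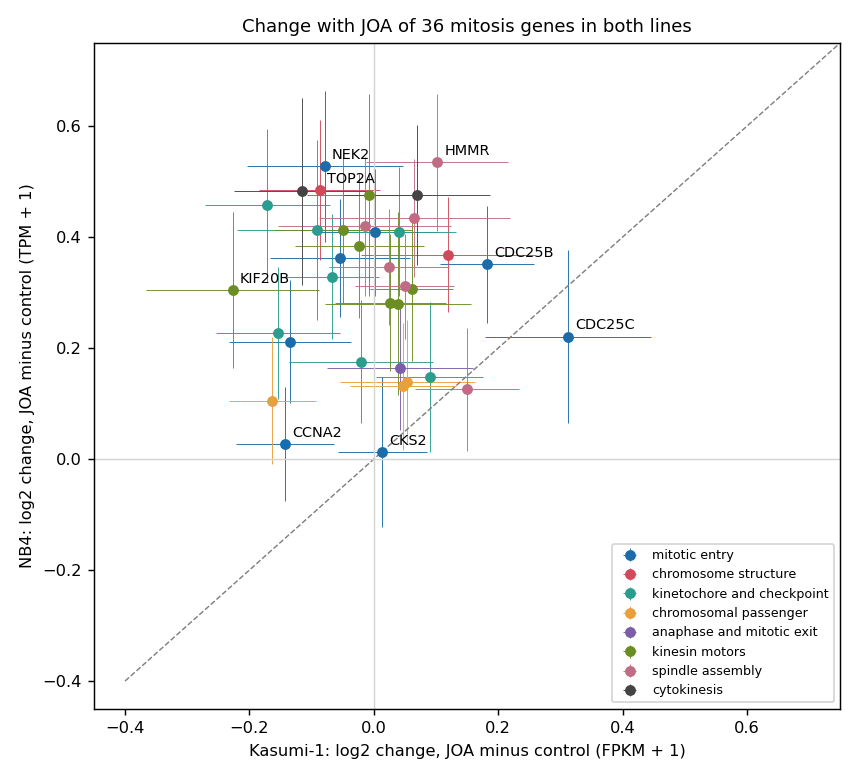
Change with JOA of the 36 members matched in both tables, Kasumi-1 on the horizontal axis in log2(FPKM + 1) and NB4 on the vertical axis in log2(TPM + 1), coloured by role, with standard errors as bars and the diagonal of equal change dashed. As deposited, 33 of the 36 points lie above the diagonal, as with median-ratio scaling, and the Kasumi-1 values scatter around 0.

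Other genes of the mitotic pathway, taken from lists by function, moved less evenly in NB4. By limma 0 genes of any of these lists passed an adjusted p under 0.05 in either line without pairing. Numbers at an unadjusted p under 0.05 are given for each list in NB4, and further below for Kasumi-1. The list counts in NB4 stand beside 66.2% of all genes positive as deposited (49.0% with median-ratio scaling), 8.20% higher at an unadjusted p under 0.05, and 32.5% with both JOA libraries above both controls. The 26 other spindle and cytokinesis genes tested had a median of 0.25, with 24 positive (17 with median-ratio scaling), 10 at an unadjusted p under 0.05 and 16 with both JOA libraries above both controls. ASPM, a spindle pole organiser, went from 12.8 ± 1.93 to 18.5 ± 2.24 TPM (SD, n = 2) and DEPDC1 from 13.3 ± 0.684 to 19.2 ± 0.585 TPM, changes of 0.51 and 0.50. FAM83D, which directs a kinase to the spindle, went from 4.47 ± 6.33 to 10.9 ± 6.80 TPM, and its low mean rests on a control library near 0.

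The 29 other kinetochore genes had a median of 0.02, with 16 positive (12 with median-ratio scaling) and 3 at an unadjusted p under 0.05 in limma. KNL1, the kinetochore scaffold, went from 18.0 ± 1.12 to 28.3 ± 3.69 TPM (log2 change 0.62, SE 0.15, limma adjusted p = 0.259). INCENP, the passenger scaffold, went from 110 ± 5.17 to 147 ± 6.55 TPM (0.41, limma adjusted p = 0.268), and KNSTRN from 47.6 ± 4.41 to 60.7 ± 6.67 TPM. Cohesin and its protectors, which hold sister chromatids together, had a median of 0.21 with 11 of 12 positive (9 with median-ratio scaling) and 0 at an unadjusted p under 0.05, and condensin, which compacts them, 0.10 with 8 of 8 positive (4 with median-ratio scaling) and 0. RAD21, the cleavable cohesin subunit, went from 71.3 ± 1.52 to 86.7 ± 10.6 TPM.

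The regulators, APC/C subunits and brakes had shares of positive genes near that of all genes, as deposited. The regulators had a median of 0.13 in NB4, with 10 of 14 positive (9 with median-ratio scaling) and 1 at an unadjusted p under 0.05 in limma. NFYB, a subunit of the CCAAT-binding factor, went from 29 ± 1.94 to 37.1 ± 3.30 TPM. FOXM1 and MYBL2 (B-MYB), singled out after their values were seen, went in opposite directions, from 63.1 ± 0.784 to 71.5 ± 0.765 TPM and from 203 ± 18.3 to 176 ± 7.18 TPM. Their changes were 0.18 (SE 0.10, limma adjusted p = 0.574) and -0.20 (SE 0.11, limma adjusted p = 0.540), and neither passed an unadjusted p under 0.05. The APC/C list had a median of 0.09 with 12 of 16 positive (8 with median-ratio scaling) and 2 at an unadjusted p under 0.05, and the mitotic brakes and entry kinases 0.09 with 8 of 11 (6 with median-ratio scaling) and 1. GTSE1, a G2 and S phase protein on microtubules, went from 37.3 ± 1.43 to 46.8 ± 0.158 TPM, and PKMYT1, an inhibitory kinase of CDK1, from 157 ± 19.9 to 129 ± 13.3 TPM. Of 5 CDK inhibitors tested 4 were positive and 2 at an unadjusted p under 0.05, with CDKN2D going from 22.2 ± 2.46 to 30.6 ± 2.31 TPM and CDKN1A (p21) from 11.97 ± 1.60 to 9.79 ± 0.453 TPM.

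Replication genes, which act in the phase before, went the other way in NB4. Of 41 tested, 35 were negative as deposited, with a median of -0.14. With median-ratio and quantile scaling 39 were negative, with medians of -0.24 and -0.16. As deposited, limma placed 6 lower at an unadjusted p under 0.05, where 314 of all 12932 genes were. Both JOA libraries lay below both controls for 22, where 11.0% of all genes did so. UNG, the uracil glycosylase, went from 192 ± 15.0 to 131 ± 12.8 TPM, a change of -0.55 (SE 0.11, limma adjusted p = 0.197), and E2F1 from 61.5 ± 2.72 to 49.4 ± 3.14 TPM. In Kasumi-1 these lists had medians between -0.10 and 0.01 as deposited, and between -0.17 (condensin) and -0.05 (regulators) with median-ratio scaling, all of them negative. There 0 of 11 cohesin and 0 of 5 condensin genes were positive, as deposited (61.9% of all genes) and with both scalings (47.5% of all genes). SMC2, the condensin core ATPase, went from 27.4 ± 2.84 to 23.0 ± 0.897 FPKM (n = 3, limma adjusted p = 0.224). Without pairing, limma placed 3 of 24 other kinetochore and 3 of 28 replication genes lower at an unadjusted p under 0.05. The same fit placed 1 of 20 other spindle and 1 of 5 condensin genes lower, and 1 replication gene higher. Of the remaining lists it placed 0 genes either way, and of all 12101 genes 566 lower and 1416 higher. Paired calls in Kasumi-1 were 1 of 11 regulators up, and 1 of 24 kinetochore and 1 of 28 replication genes down. Of all 12101 genes, 736 were called up and 249 down with pairing, 8.14% in both directions together. With 1 call in each of these lists, no conclusion about them is drawn.

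**Figure D5:**
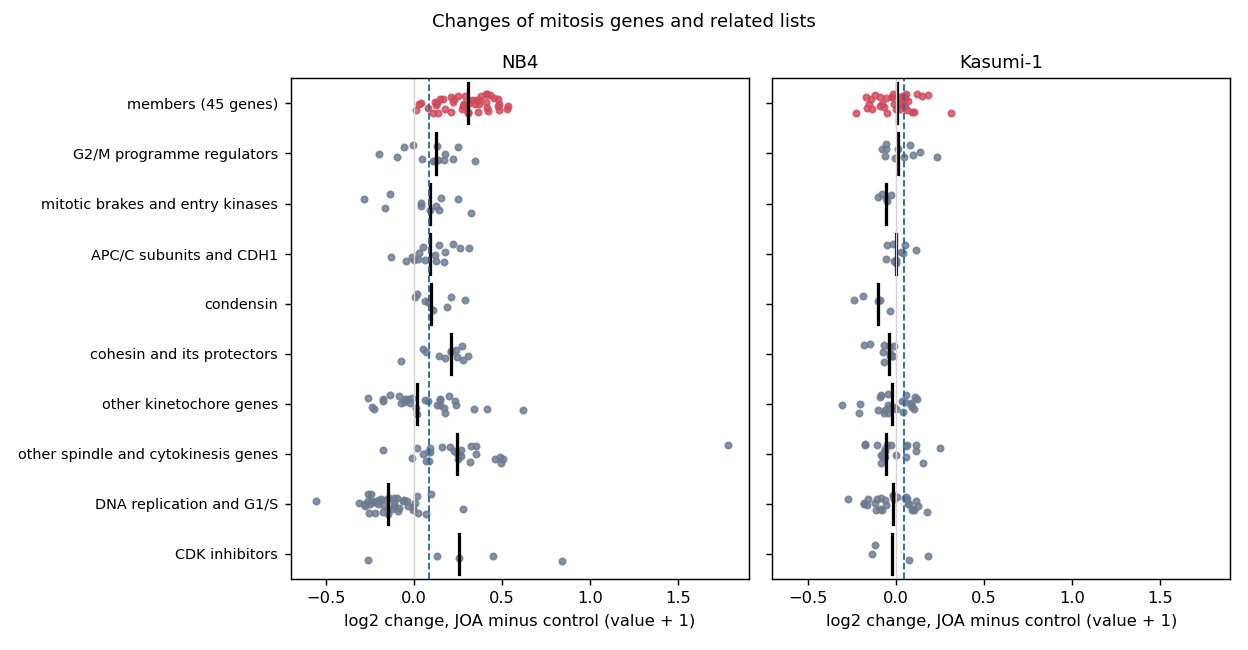
Log2 change with JOA (horizontal axis, value + 1) of each gene tested, for the members (red) and the other lists (grey) in NB4 and Kasumi-1, with black bars for list medians, a dashed line for the median of all genes and vertical scatter within a row for legibility only. In NB4, as deposited, the members and other spindle genes lie mostly right of the dashed line and replication genes left of it; with median-ratio scaling 4 members fall below 0.

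Members with the CHR letters and members without them overlapped in NB4. The 28 members with a CHR in a window ran from 0.01 to 0.53 with a median of 0.32, and the 11 without ran from 0.03 to 0.53 with a median of 0.21. CKS2 carried both motifs and had the smallest change of the set, while NEK2, without CHR in its window, had the second largest. This is a description of letters and values, with no test.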

How the data were processed

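The authors deposited Kasumi-1 values as FPKM, going by the name of the table. It has 29053 rows with a sequence record as label, of which 37.5% (45.8% of the FPKM) were matched to symbols and 3 had no record. The NB4 table is named for FPKM as well, but the columns that the authors deposited each sum to just under 1000000 (999679 to 999758), so they were taken as TPM. How the authors made these TPM values is not given in the sources used here. The 121005 transcripts were summed to genes (GENCODE v29 on GRCh38, 93.9% matched, 3.06% of TPM unmatched). The design had assumed FPKM, and the same log-scale test was kept. RNA was extracted with Trizol and made into TruSeq stranded mRNA libraries, per the labels' protocols. HISAT2, HTSeq, Trimmomatic, Cufflinks and the build hg38 appear in the submitters' processing notes, without version or role. TPM keeps no depth, and no counting interval was computed.

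Fits were made per line in limma 3.58.1 (R 4.3.3; Python 3.11.15 for the tables) on log2(value + 1), a scale that understates changes of low genes, with a variance trend. Genes needed a value of 1 or more in at least the number of libraries in the smaller group, which all matched members passed. P-values were adjusted over all genes (Benjamini-Hochberg), in the Kasumi-1 fit with each unmatched row counted as a gene. The lines were compared by the difference of differences in 1 fit; their levels were not compared, since the tables were normalised separately. The fits were also run on simulated data with larger changes than those of the members. Recovery of changes as small as the members' was not simulated. Alternatives were other pseudocounts, filters and scalings, a replicate block, and each library left out.

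The members and lists were chosen with earlier results of these data known. Values in every library are given for CDK1, CCNB1, PLK1, AURKA, TOP2A and MKI67 and for the 2 members of each role with the largest change in each line, and from each other list up to 3 genes are named. In Kasumi-1 same-numbered control and JOA libraries deviated together (correlations 0.330, 0.500 and 0.424, others -0.06 or lower), so the numbers were taken as pairs; no label states the pairing. Deviations were taken from group means, so positive same-number values push the others lower. In NB4, with 2 libraries per group, the deviations mirror each other and the 2 pairs must share a single value, 0.0657. The NB4 libraries were not taken as pairs. No pair of replicates had identical values in more than 0.109% of genes.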

Additional observations from a re-analysis of the deposited data

How the results depend on the processing

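For the members, no setting changed the sign of a median in NB4 or of the difference between lines. The NB4 median of 0.30 was 0.21 with median-ratio scaling, and 0.24 to 0.34 with each library left out. The Kasumi-1 median of 0.01 ran from -0.06 to 0.09 with each library left out. The difference between lines had medians of -0.40 to -0.27 over these refits. Where NB4 lost a library, limma took the lone library to vary like the other group. Members past the adjusted p numbered 0 in each line and for the difference in these refits, and also with a pseudocount of 0.1, no filter, or other scalings. With the replicate block, 1 of the 36 Kasumi-1 members passed (CDC25C), and 3 passed with the block and median-ratio scaling together, an alternative added after seeing the data. The block called 0 members in NB4, where the numbers were not taken as pairs, and 157 genes in all instead of 1, and 0 members for the difference. With a pair left out, the paired Kasumi-1 fit called 0 members. Among all genes the Kasumi-1 count went from 0 to 985 with the block. In NB4 the median SE of a member's change was 0.12.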
